A study of Mus musculus with 32 samples.

Results

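Sphere cultures of TH-MYCN neuroblasts that had been passaged 5 times were compared with the superior mesenteric ganglia (SMG) of TH-MYCN mice. All cultures labelled as passaged spheres and all ganglia labelled TH-MYCN SMG were included: 4 cultures with 2 arrays each and 8 ganglia with 1 array each, or 16 of the 32 arrays and 12 of the 28 samples in the series. The passaged spheres were derived from 3-week-old hemizygotes (TH-MYCN+/-) on the 129+Ter/SvJcl background. The TH-MYCN SMG came from mice of the same genotype, age and background. A further 8 primary sphere cultures of that genotype, age and background, kept for 8 days in culture, served as another reference, and the 8 wild-type ganglia of the series were not compared here. Every group compared here carries the transgene, so its presence is not what differs between them.

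In TH-MYCN mice human MYCN is driven by the tyrosine hydroxylase promoter, which is active in the sympathoadrenal lineage, and neuroblastoma-like tumours arise in sympathetic ganglia. MYCN is a MYC-family transcription factor that pairs with MAX, binds E-boxes and is known to raise genes of ribosome assembly, nucleotide synthesis and the cell cycle; its amplification marks high-risk human neuroblastoma. Sympathetic neuroblasts are defined by a circuit of transcription factors (HAND2, GATA3 and ISL1 among them), make noradrenaline, and mature into neurons under neurotrophic factors. A ganglion is a whole tissue that also holds Schwann and satellite glia, fibroblasts, vessels and macrophages, whereas sphere culture selects cells that grow in suspension.

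Values are log2 signals of 1-colour Agilent mouse arrays, scaled so that the 75th percentile of an array is 0, and the level of 1 probe cannot be set against that of another. The 75th percentile signal was 323 to 539 on passaged sphere arrays and 840 to 1358 on TH-MYCN SMG arrays, and 49.0% to 53.9% of spots were well above background on passaged sphere arrays, against 59.1% to 64.1% on TH-MYCN SMG arrays. Dim genes were therefore measured less well in the spheres. Among genes named further on, Adm, Chrna3 and Crabp1 were well above background on 6 of 8 passaged sphere arrays and Nupr1 and Pnoc on 5, and lower numbers are given beside the gene. Where no array of the dimmer group was well above background, the difference is given as a bound ("at least N-fold") that uses the lowest signal well above background on those arrays. The 4 cultures correlated with one another at 0.984 to 0.991 and the 8 ganglia at 0.961 to 0.994 over the tested genes, and ganglion 4 stood apart with the lowest cell-cycle levels. Sphere and ganglion RNA lay on different slides scanned on different days, so slide and group cannot be told apart in this contrast. The labels do not tie a culture or a ganglion to an animal, so p-values measure the spread between these samples.

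The passaged spheres differed from the TH-MYCN SMG in most of the transcriptome. Of 15384 genes tested with limma at an adjusted p of 0.05, 7231 were higher in passaged spheres (47%) and 5024 were lower (32.7%), which makes 79.7% called. At least 2-fold changes numbered 2774 higher (18%) and 3584 lower (23.3%). The values of the 4 cultures and the 8 ganglia did not overlap for 10091 genes (65.6%). The median difference over all tested genes was 0.26, and the medians of gene lists are read against it. The split of calls depended on scaling: 59% of calls were higher in the main setting, 50.2% after quantile normalization (median of all genes 0.03) and 68.2% after normexp background correction (median 0.38). A list of genes is accordingly described by its counts against these shares and by its median.

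Mouse Mycn was among the clearest gains of the MYC network. Its level was 4.16, 4.20, 3.92 and 3.92 in passaged spheres 1 to 4, against a lowest, median and highest of 0.86, 1.02 and 1.26 in TH-MYCN SMG. Every culture lay above every ganglion, with a difference of 3.04 ± 0.09 (SE; 8.25-fold, adjusted p = 2.16e-11). The probe is annotated to the mouse gene and need not detect the human transgene. Max, the obligate partner of MYC proteins, differed by 0.71 ± 0.10 (adjusted p = 2.99e-05). Myc lay at -4.85, -3.86, -4.34 and -4.76 in passaged spheres, against -2.57, -2.37 and -1.94 as lowest, median and highest in TH-MYCN SMG, a 4.47-fold lower signal (adjusted p = 3.27e-07), and 4 of the 8 passaged sphere arrays measured it well above background; under normexp the difference of Myc was -0.53. Mycl overlapped between the groups and did not pass the test (-0.53 ± 0.42, adjusted p = 0.266). Among the antagonists and relatives of MAX, Mxd3, which is tied to S phase, was 3.04-fold higher (adjusted p = 0.00105) and Mlxip, a glucose-sensing partner of MLX, 1.73-fold higher (adjusted p = 9.81e-06), while Mxd4, a MAX-binding repressor, was 4.36-fold lower (adjusted p = 4.35e-07). In all, 8 of the 12 measured network genes (13 listed) rose and 2 fell, with a median of 0.45, against 5 and 2 with a median of 0.17 after quantile normalization. Mlxipl, counted as higher, was lower by another probe (-2.07).

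**Figure D1:**
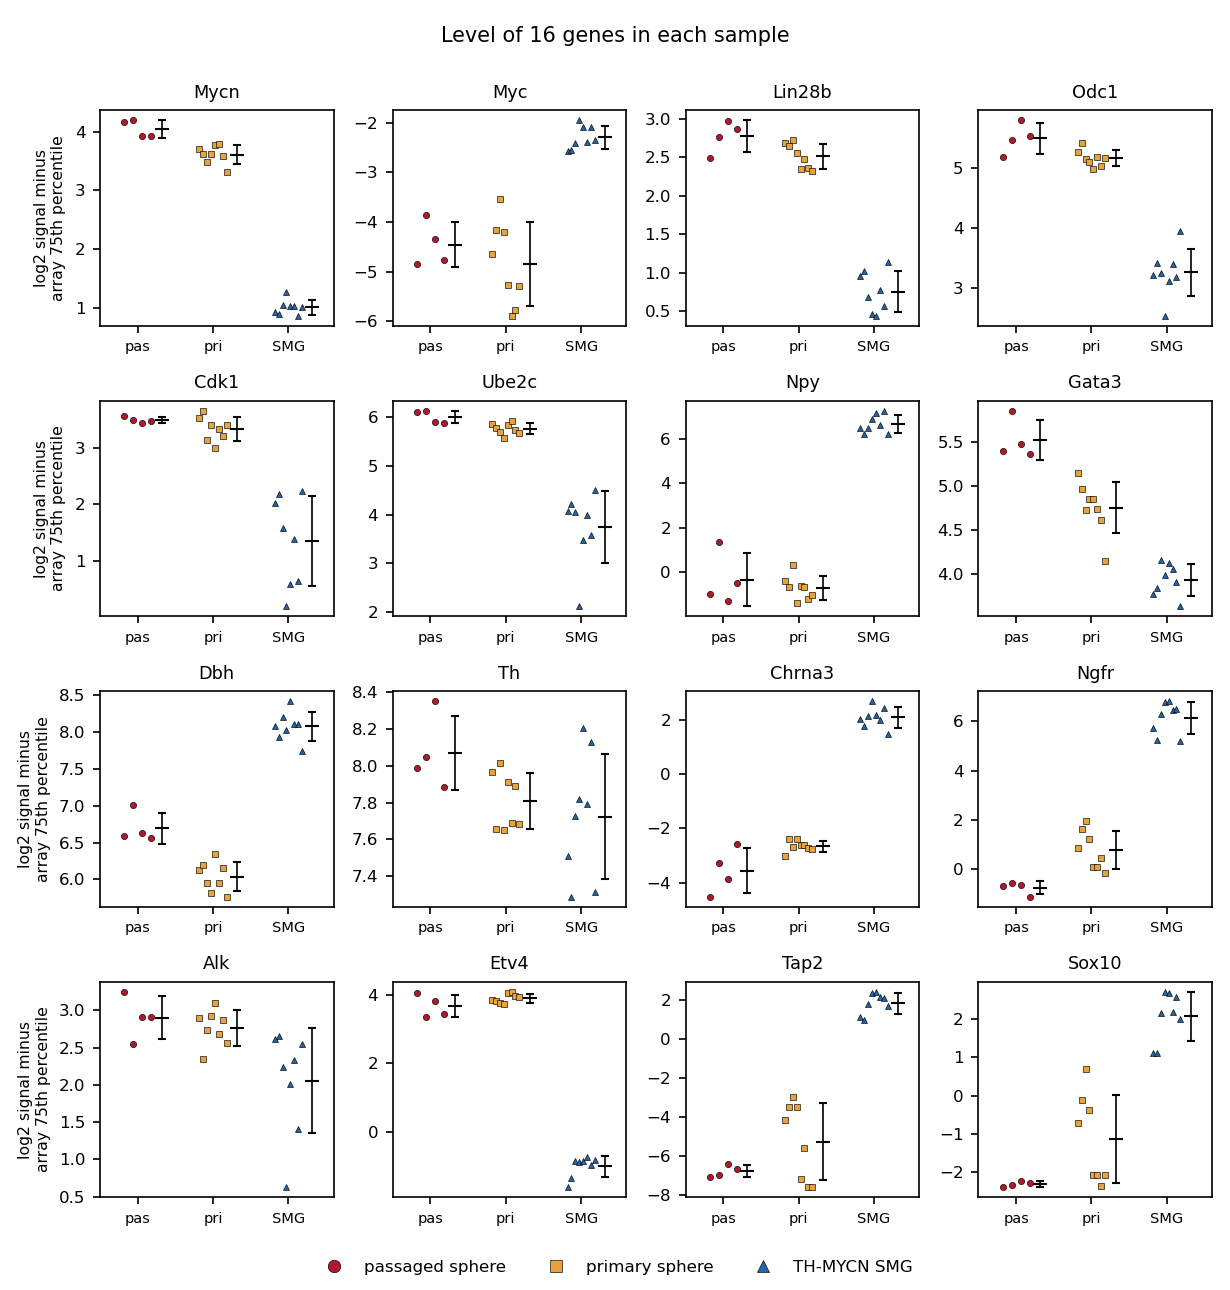
Log2 signal relative to the array's 75th percentile (y axis) for 16 genes, 1 panel each, in 4 passaged sphere cultures, 8 primary sphere cultures and 8 TH-MYCN SMG; points are samples and bars are means ± SD. Mycn, Lin28b, Etv4 and Gata3 lie above the ganglia in every passaged culture, Dbh, Chrna3, Npy, Ngfr, Sox10 and Tap2 lie below them, and the 2 groups overlap for Th and Alk.

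Lin28b, an RNA-binding inhibitor of let-7 maturation and a neuroblastoma oncogene, was at 2.49, 2.77, 2.98 and 2.88 in passaged spheres, against 0.44, 0.73 and 1.13 as lowest, median and highest in TH-MYCN SMG. The groups did not overlap and the difference was 2.02 ± 0.15 (SE; 4.07-fold, adjusted p = 9.01e-08). Its promoter is shown because it holds the E-box CACGTG that MYC family proteins bind (in capitals), with its first base 49 bases before the annotated start. The sequence comes from RefSeq (GRCm38.p6, chr10:45470202-45470451, minus strand), 250 bases upstream of the start, written 5′ to 3′ in the direction of the gene:
Lin28b: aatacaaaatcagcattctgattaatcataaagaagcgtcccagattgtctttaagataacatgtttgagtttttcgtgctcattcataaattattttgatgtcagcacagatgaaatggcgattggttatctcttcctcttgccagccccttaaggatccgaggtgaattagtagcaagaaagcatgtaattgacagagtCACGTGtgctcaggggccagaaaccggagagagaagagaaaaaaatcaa
The same 6 letters occur in 6.05% of 27025 mouse promoters of this length (the motif reads the same on both strands) and in 4 of the 13 promoters of the crest and fetal growth list that have a sequence. Of the nucleotide synthesis list 4 of 19 promoters held it, of the ribosome biogenesis list 1 of 15 and of the polyamine list 1 of 10. The MHC class I list, most of which fell, had it in 3 of 10. It was in 0 of 17 mitosis, 0 of 12 replication and 0 of 13 interferon promoters. The 4 crest and fetal growth promoters include those of Lin28b, Msi2 and Igf2bp3, which rose, and that of Foxd3, which fell. Whether the motif goes with the direction of change was not tested. A match is a description of these letters and not a binding site.

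Genes of cell growth moved together. All 20 ribosome biogenesis genes rose (median 1.37, against 0.26 for all genes; 20 of 20 also after quantile normalization, median 1.00), among them the rRNA methyltransferase Fbl, at 4.78, 4.88, 4.99 and 5.03 in passaged spheres, against 2.42, 3.10 and 3.42 as lowest, median and highest in TH-MYCN SMG (3.71-fold, adjusted p = 1.11e-06). The nucleolar chaperone Nolc1 was 3.22-fold higher (adjusted p = 7.19e-07) and Ppan, needed for the large ribosomal subunit, 3.38-fold higher (adjusted p = 1.3e-06). Of 21 genes of purine, pyrimidine and deoxynucleotide synthesis 19 rose and none fell (median 1.23), where quantile normalization gave 17 and 1. Ppat, the enzyme that commits to purine synthesis, was at 2.06, 1.99, 2.00 and 1.93 in passaged spheres, against -0.34, 0.08 and 0.28 in TH-MYCN SMG (3.91-fold, adjusted p = 1.12e-08). The ribonucleotide reductase subunit Rrm2 and thymidine kinase Tk1, both S-phase enzymes, were 5.15-fold and 4.84-fold higher (adjusted p = 4.65e-05 and 6.42e-05).

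The serine and folate one-carbon list was split: 10 of 14 genes rose and 3 fell (median 1.1). Mthfd2, the mitochondrial folate enzyme of proliferating cells, was 3.80-fold higher (adjusted p = 1.03e-07), Psat1 of serine synthesis 4.02-fold higher (adjusted p = 6.79e-07) and cytosolic Shmt1 4.05-fold higher (adjusted p = 0.000105). Phgdh, which opens the same serine pathway as Psat1, was at -0.31, 0.70, -0.93 and -0.30 in passaged spheres, below the 1.53, 2.17 and 2.79 that were lowest, median and highest in TH-MYCN SMG (5.33-fold lower, adjusted p = 1.55e-05). Aldh1l1, a folate dehydrogenase used as an astrocyte and glial marker, was 4.34-fold lower (adjusted p = 5.44e-06), and the glial markers described further on were lower as well; their part in this fall was not tested.

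Of 13 measured polyamine genes (14 listed) 9 rose and 3 fell (median 0.76), and this shift rested on scaling, since quantile normalization gave 6 higher and 4 lower with a median of 0.11. Odc1, the rate-limiting enzyme of polyamine synthesis and a classical MYC target, was at 5.18, 5.46, 5.80 and 5.53 in passaged spheres, against 2.54, 3.24 and 3.95 in TH-MYCN SMG (lowest, median and highest; 4.68-fold higher, adjusted p = 6.65e-07). Spermidine synthase Srm was 3.24-fold higher (adjusted p = 1.63e-07) and Eif5a, the protein that spermidine modifies, 3.18-fold higher (adjusted p = 2.85e-09). The genes that rose also held Sat1, which acts on breakdown, and the antizyme Oaz1, so rises were not confined to synthesis. Azin1 rose by the probe used (0.43) but was lower by another probe (-0.56). The genes that fell act on breakdown or on an enzyme inhibitor: spermine oxidase Smox (1.80-fold lower, adjusted p = 7.72e-05), polyamine oxidase Paox (2.59-fold lower, adjusted p = 4.55e-07) and the antizyme inhibitor Azin2 (4.67-fold lower, adjusted p = 1.39e-06).

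**Figure D2:**
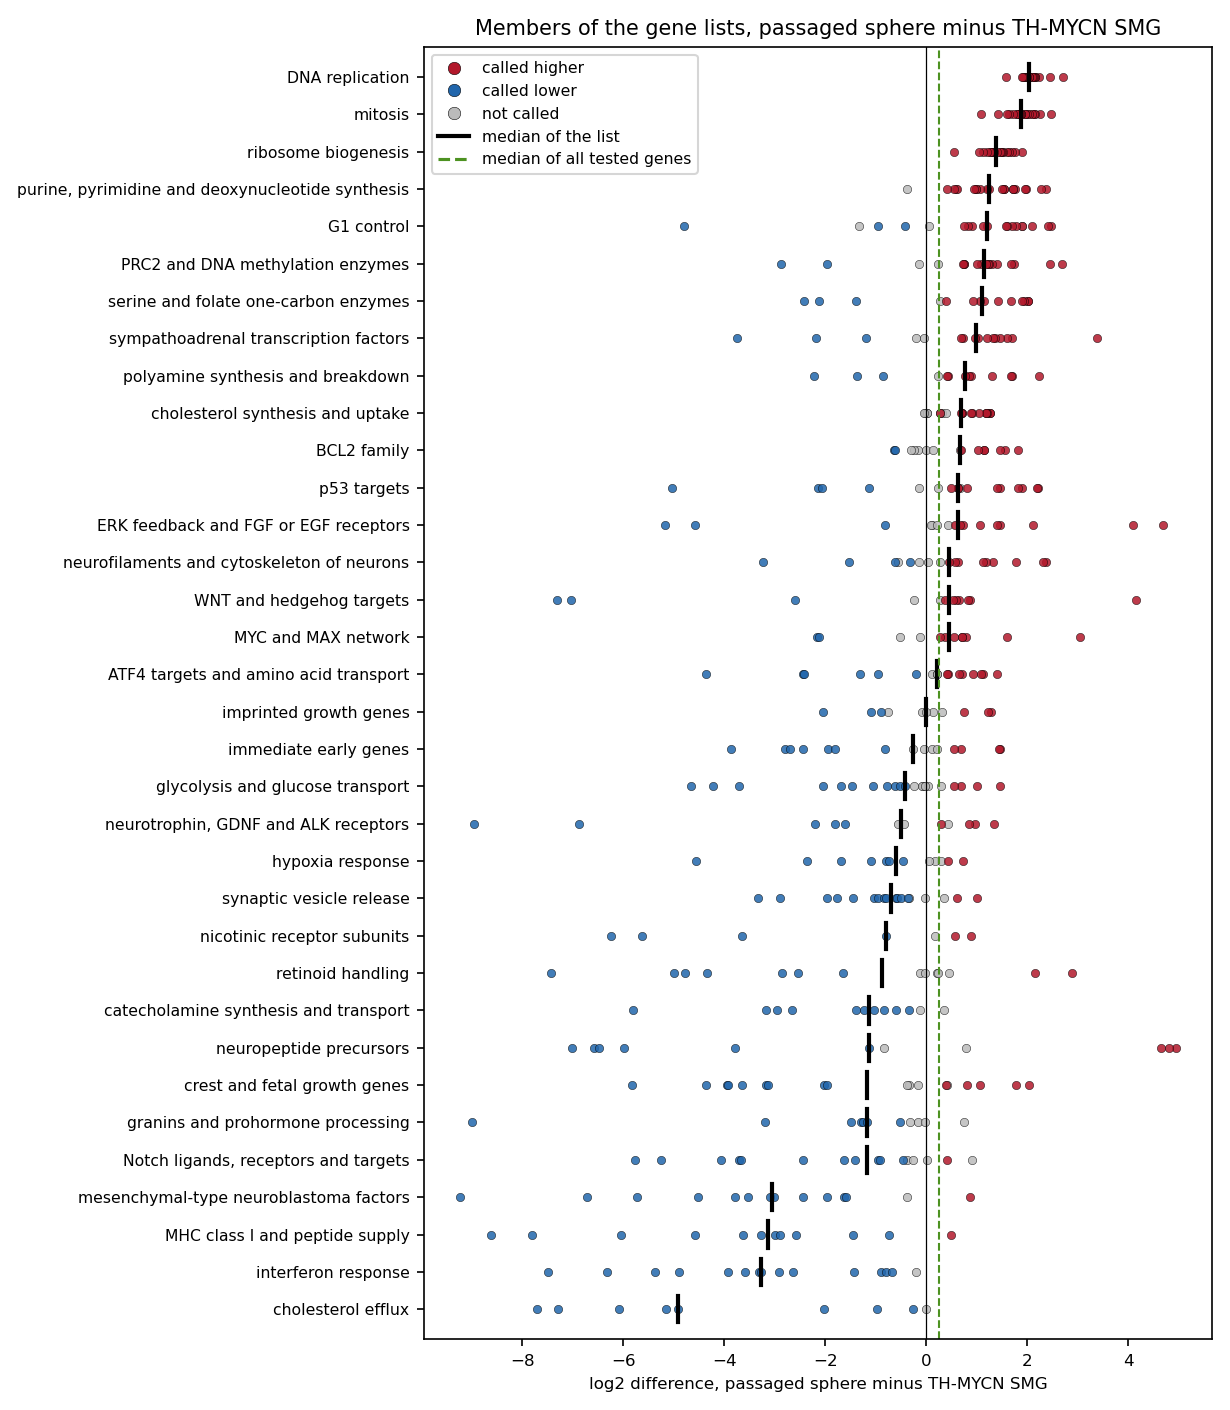
Log2 difference of passaged sphere minus TH-MYCN SMG (x axis) for each measured gene of the program lists (rows); each point is a gene, red where called higher, blue where called lower and grey where not called, genes not well above background in the cultures being drawn at their fitted value, with the list median as a black mark and the median of all tested genes (0.26) as a dashed line. All genes of DNA replication, mitosis and ribosome biogenesis lie on the higher side, and the lists of MHC class I, interferon response and cholesterol efflux lie almost wholly on the lower side.

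Every listed cell-cycle gene of DNA replication and mitosis was higher in passaged spheres. All 17 replication genes rose (median 2.03; 1.63 after quantile normalization and 1.86 without ganglion 4). The licensing factors Cdc6 and Cdt1 were 4.70-fold and 6.49-fold higher (adjusted p = 5.98e-05 and 5.22e-06), and the helicase subunit Mcm3 was at 5.39, 5.60, 5.31 and 5.47 in passaged spheres, against 1.76, 3.19 and 3.73 as lowest, median and highest in TH-MYCN SMG (5.49-fold, adjusted p = 8.81e-06). All 20 mitosis genes rose (median 1.88), 19 of them after quantile normalization (median 1.44). Cdk1, the mitotic kinase, was at 3.56, 3.50, 3.45 and 3.48 in passaged spheres, against 0.19, 1.49 and 2.24 in TH-MYCN SMG. The cultures lay within a narrow band above all ganglia, and the difference was 2.14 ± 0.37 (SE; 4.42-fold, adjusted p = 0.000167); a fit that also held the wild-type SMG and primary spheres gave an adjusted p of 0.13. Ube2c, the ubiquitin-conjugating enzyme of the anaphase-promoting complex, was at 6.10, 6.13, 5.90 and 5.87 in passaged spheres, against 2.12, 4.02 and 4.51 in TH-MYCN SMG (4.75-fold, adjusted p = 6.49e-05). Aurkb, the kinase of the chromosomal passenger complex, overlapped with the highest ganglion (-2.29) at -2.41 in culture 3 and was 5.52-fold higher on average (adjusted p = 0.0145), but 1.01 on the log2 scale against ganglia 1 to 4 alone (adjusted p = 0.11).

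The ganglia themselves differed in cell-cycle content more than the cultures did. The mean level of the mitosis list was 3.90 to 4.17 in passaged spheres and 0.82 to 2.92 in TH-MYCN SMG, and that of the replication list 4.25 to 4.48 in passaged spheres and 1.03 to 2.93 in TH-MYCN SMG. Ganglion 4 was the lowest on both lists. Without it the mitosis median was 1.69 and all 20 genes were still called.

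The promoters of Cdk1 and Ube2c are shown for a motif that most mitosis promoters hold. CCAAT, the box bound by NF-Y (in capitals, and as ATTGG where it lies on the opposite strand), was found on either strand in 15 of the 17 mitosis promoters that have a sequence (88.2%; 20 genes measured) and in 8 of 12 replication promoters (66.7%), against 34.5% of all 27025 promoters. It was also found in 7 of 10 promoters of the MHC class I list (70%), in which 11 of 12 genes fell. The other lists counted held it in 20% to 46.2% of promoters, so it is not particular to genes that rose. The motif was singled out after these counts were seen. Both sequences are the 250 bases upstream of the start (RefSeq, GRCm38.p6), Cdk1 from chr10:69352913-69353162 on the minus strand and Ube2c from chr2:164769679-164769928 on the plus strand, written in the direction of the gene:
Cdk1: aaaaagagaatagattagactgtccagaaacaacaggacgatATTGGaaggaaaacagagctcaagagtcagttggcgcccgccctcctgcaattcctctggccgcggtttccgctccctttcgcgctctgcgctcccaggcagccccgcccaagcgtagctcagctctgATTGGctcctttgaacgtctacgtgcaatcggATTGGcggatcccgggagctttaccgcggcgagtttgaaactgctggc
Ube2c: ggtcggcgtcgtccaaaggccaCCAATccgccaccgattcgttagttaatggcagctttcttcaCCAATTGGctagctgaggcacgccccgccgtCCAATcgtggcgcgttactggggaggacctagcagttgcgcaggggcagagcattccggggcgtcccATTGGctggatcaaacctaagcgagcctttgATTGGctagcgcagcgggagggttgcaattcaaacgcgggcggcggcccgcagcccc
Cdk1 held 3 matches, whose first bases lay 208, 80 and 48 bases before the start. Ube2c held 6, at 228, 186, 183, 155, 88 and 57 bases, of which those at 186 and 183 overlap on opposite strands.

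**Figure D3:**
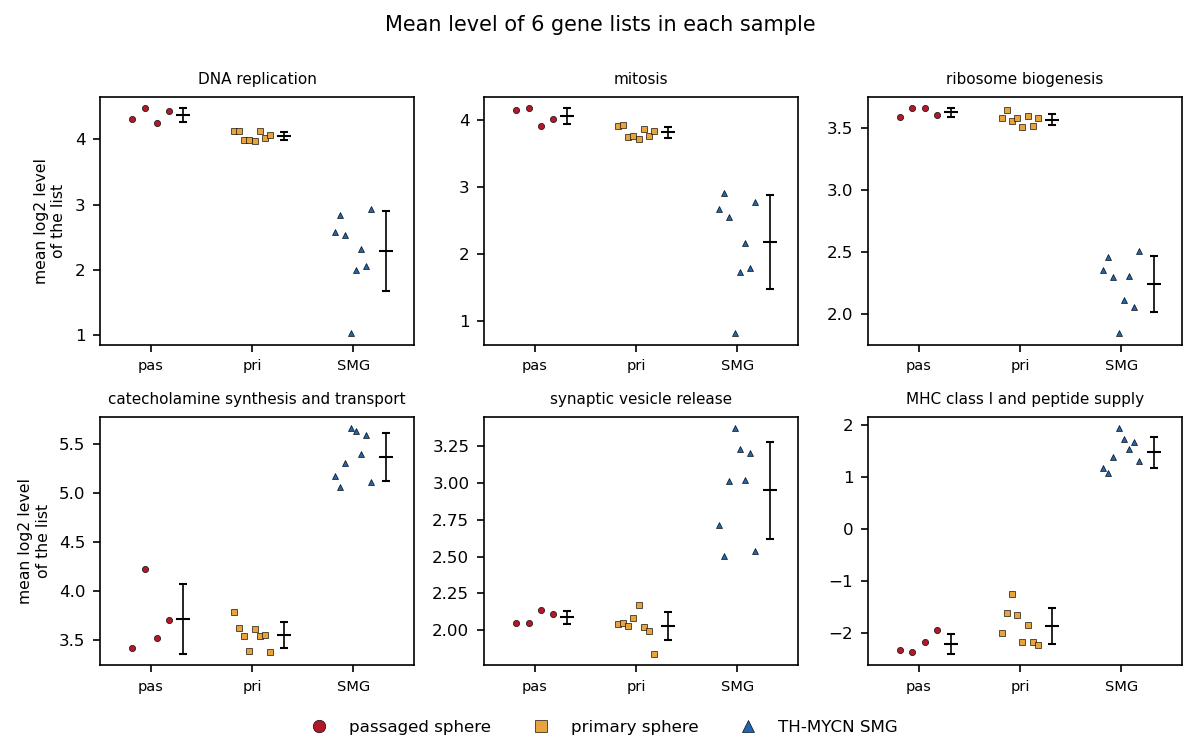
Mean log2 level of 6 gene lists (1 panel each, y axis) in passaged spheres, primary spheres and TH-MYCN SMG; points are samples and bars are means ± SD. The mitosis and replication means of the 4 passaged cultures lie above all 8 ganglia, and those of the catecholamine, synaptic vesicle and MHC class I lists lie below all 8.

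Of 19 measured genes of G1 control (21 listed) 13 rose and 3 fell (median 1.20). The S-phase activators E2f1 and E2f2 were 5.28-fold and 5.54-fold higher (adjusted p = 3.27e-06 and 2.34e-07) and Cdk2, the partner of cyclins E and A, 4.24-fold higher (adjusted p = 4.78e-08). The D-type cyclins split. Ccnd1, the cyclin most often high in neuroblastoma, was at 6.45, 7.24, 6.61 and 6.79 in passaged spheres, against 4.36, 5.19 and 5.54 as lowest, median and highest in TH-MYCN SMG (3.24-fold higher, adjusted p = 2.07e-05). Ccnd2 was at -6.25, -4.64, -5.71 and -4.91 in passaged spheres, with 1 of 8 arrays well above background, against -1.58, -0.43 and 0.08 in TH-MYCN SMG (27.7-fold lower, adjusted p = 1.48e-07; -1.97 on the log2 scale under normexp). Ccnd3 was 1.93-fold lower (adjusted p = 1.08e-05), and the pocket protein Rbl2, which represses E2F genes in resting cells, 1.35-fold lower (adjusted p = 0.000848).

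The sympathoadrenal transcription factors were largely retained or higher. Of 16 genes, all detected in all 4 cultures, 11 rose and 3 fell (median 0.99; after quantile normalization 7 and 4, median 0.38). Gata3, required for noradrenergic differentiation, was at 5.40, 5.86, 5.48 and 5.37 in passaged spheres, against 3.62, 3.94 and 4.15 as lowest, median and highest in TH-MYCN SMG (3.03-fold, adjusted p = 1.39e-07). The groups did not overlap. Hand2 of the same circuit was 1.62-fold higher (adjusted p = 1.35e-05), a difference that came to 0.07 after quantile normalization (adjusted p = 0.503). Sox11, a factor of immature neuroblasts, was 3.25-fold higher (adjusted p = 8.44e-05).

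The 3 factors that fell were Phox2a, Hand1 and Gata2. Phox2a was at 4.91, 3.69, 4.08 and 4.13 in passaged spheres, against 6.04, 6.37 and 6.79 in TH-MYCN SMG (lowest, median and highest; 4.53-fold lower, adjusted p = 5.84e-07). Hand1 was at 0.33, 0.52, -1.26 and -1.97 in passaged spheres, against 2.64, 3.10 and 3.79 in TH-MYCN SMG (13.4-fold lower, adjusted p = 2.61e-06). Gata2 varied between cultures (1.46, 3.81, 0.87 and 2.52) and overlapped with the ganglia (2.88 to 3.76), at 2.30-fold lower on average (adjusted p = 0.0186); the call was lost without culture 1 (-0.97, adjusted p = 0.0705) and without culture 3 (-0.77, adjusted p = 0.081).

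Most noradrenergic effector genes were lower, except for the enzyme that opens the pathway. Of 12 catecholamine genes none rose and 10 fell (median -1.13; 12 of 12 fell after quantile normalization, median -1.67). Th, tyrosine hydroxylase, whose promoter drives the transgene, was at 7.99, 8.05, 8.35 and 7.88 in passaged spheres, against 7.29, 7.76 and 8.21 as lowest, median and highest in TH-MYCN SMG. The groups overlapped and the difference of 0.35 ± 0.18 did not pass the test (adjusted p = 0.0923); quantile normalization turned it to -0.72 (adjusted p = 0.00888), while Th passed as higher in 8 other settings, the fits without ganglion 5 or ganglion 7 among them (adjusted p = 0.00638 to 0.0499), so it has no settled direction. Dbh, which makes noradrenaline, was at 6.58, 7.01, 6.63 and 6.57 in passaged spheres, against 7.75, 8.10 and 8.42 in TH-MYCN SMG (2.61-fold lower, adjusted p = 5.63e-07). The vesicle transporter Slc18a2 (9.03-fold lower, adjusted p = 1.22e-07), the vesicle electron carrier Cyb561 (7.78-fold lower, adjusted p = 2.64e-09) and the noradrenaline reuptake transporter Slc6a2 (56.1-fold lower, adjusted p = 2.41e-07) fell further. Slc6a2 was spread from -1.46 to 1.71 among the cultures, all below the 5.19 of the lowest ganglion.

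Most genes of vesicle release were lower, and most of the granin list. Of 11 genes of granins and prohormone processing none rose and 7 fell (median -1.18). Pcsk1, a convertase of peptide hormones, was not well above background on any passaged sphere array and was at least 115-fold lower (adjusted p = 1.43e-11), its relative Pcsk2 was 9.14-fold lower (adjusted p = 1.33e-09) and secretogranin Scg2 2.81-fold lower with overlapping values (adjusted p = 0.0246), a call lost without culture 2 (-0.73, adjusted p = 0.0748) and without culture 4 (-1.47, adjusted p = 0.0519). Of 18 synaptic vesicle genes 2 rose and 13 fell (median -0.70). The calcium sensor Syt1 was at 3.54, 2.82, 3.31 and 3.29 in passaged spheres, against 5.26, 6.28 and 6.70 as lowest, median and highest in TH-MYCN SMG (7.49-fold lower, adjusted p = 6.39e-07). Vamp1, a vesicle SNARE, was 10.0-fold lower (adjusted p = 5.23e-08) and Syt4 3.91-fold lower (adjusted p = 3.32e-05), while the active-zone scaffold Rims1 was 1.53-fold higher (adjusted p = 0.000342).

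Chrna3 and Chrnb4, which form the ganglionic acetylcholine receptor, were far lower. Chrna3 was at -4.52, -3.25, -3.85 and -2.58 in passaged spheres, against 1.46, 2.08 and 2.68 in TH-MYCN SMG (lowest, median and highest; 49.7-fold lower, adjusted p = 6.08e-09), and Chrnb4 was 76.2-fold lower (adjusted p = 2.29e-09). Their genomic neighbour Chrna5 was not well above background on any passaged sphere array (at least 4.36-fold lower, adjusted p = 9.44e-08). In contrast Chrna7 was 1.84-fold higher without overlap (adjusted p = 4.95e-05), and Chrna2 was 1.48-fold higher with overlap (adjusted p = 0.0357), a call lost in 10 settings, among them without any 1 of cultures 1, 3 and 4 or ganglia 5, 6 and 7 (0.16 to 0.59, adjusted p = 0.0549 to 0.23). In all, 2 of 7 measured subunits (11 listed) rose and 4 fell (median -0.81), against 2 and 3 with a median of 0.03 under normexp and 1 and 3 without culture 3.

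Neuropeptide genes changed individually rather than as a group: of 11 measured (12 listed) 3 rose and 6 fell. Vip, a peptide of cholinergic sympathetic neurons, was at 3.71, 1.67, 1.34 and 2.49 in passaged spheres, against -5.37, -2.45 and -0.98 as lowest, median and highest in TH-MYCN SMG (30.9-fold, adjusted p = 9.19e-05). Cartpt was at 7.70, 8.38, 8.67 and 7.93 in passaged spheres, against 2.08, 3.67 and 4.26 in TH-MYCN SMG (25.2-fold, adjusted p = 8.84e-08). Both peptides lay above all ganglia in all cultures. Nts, neurotensin, was well above background on all 8 passaged sphere arrays, at -4.16, 0.45, 0.56 and -2.65, and on none of the ganglia (at least 17.8-fold higher, adjusted p = 0.00012).

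Npy, the co-transmitter of noradrenergic neurons, was at -1.0, 1.38, -1.29 and -0.47 in passaged spheres, against 6.21, 6.55 and 7.27 in TH-MYCN SMG (129-fold lower, adjusted p = 1.07e-08). Pnoc, the nociceptin precursor, was 95.1-fold lower (adjusted p = 1.44e-05) and ranged from -5.23 to 0.49 over the cultures. The enkephalin gene Penk, shared with chromaffin cells, was not well above background in the cultures (at least 24.7-fold lower, adjusted p = 2.41e-11).

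The neuronal cytoskeleton list was not moved in 1 direction: 9 of 17 genes rose and 4 fell with a median of 0.46, and quantile normalization turned the median to -0.43 with 6 higher and 8 lower. The light and medium neurofilaments rose in either setting; Nefl was at 7.99, 8.06, 8.30 and 7.96 in passaged spheres, against 5.94, 6.29 and 6.55 as lowest, median and highest in TH-MYCN SMG (3.42-fold, adjusted p = 3.55e-08), and Nefm was 5.18-fold higher (adjusted p = 3.31e-09). The neuronal RNA-binding protein Elavl4 was 4.96-fold higher (adjusted p = 5.6e-10). Prph, peripherin, the filament of peripheral neurons, was at 0.77, 4.92, 2.42 and 3.71 in passaged spheres, against 5.36, 6.31 and 6.80 in TH-MYCN SMG (9.35-fold lower, adjusted p = 0.0003). The microtubule genes Mapt and Tubb2a were 2.88-fold and 1.55-fold lower (adjusted p = 8.11e-06 and 0.000701).

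Receptors for survival factors moved in both directions. Ngfr, the low-affinity neurotrophin receptor of neurons and glia, was at -0.66, -0.57, -0.62 and -1.12 in passaged spheres, against 5.23, 6.38 and 6.83 as lowest, median and highest in TH-MYCN SMG (118-fold lower, adjusted p = 9.82e-10), and the neurturin co-receptor Gfra2 was 4.60-fold lower (adjusted p = 2.31e-06). Alk, the receptor kinase mutated in familial neuroblastoma, was at 3.25, 2.54, 2.91 and 2.91 in passaged spheres, against 0.62, 2.29 and 2.65 in TH-MYCN SMG (1.80-fold, adjusted p = 0.037), with overlap; the call was lost after quantile normalization (0.54, adjusted p = 0.189) and in 9 other settings, among them without any 1 of cultures 1, 3 and 4 or ganglia 5 and 7 (adjusted p = 0.0514 to 0.104). Ret, the GDNF receptor kinase, was 1.96-fold higher with overlap (adjusted p = 0.00511; 0.0814 after quantile normalization), and Gfra4 was 2.53-fold higher by the probe used (adjusted p = 0.000602) but lower by another probe (-0.66, adjusted p = 0.016). In all 4 of 12 receptors rose and 5 fell, against 1 and 6 after quantile normalization. Ntf3, neurotrophin-3, was at 0.25, -0.96, 0.03 and 0.22 in passaged spheres, against -5.48, -4.42 and -3.72 in TH-MYCN SMG (20.5-fold higher, adjusted p = 1.45e-07).

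Crest and fetal growth genes moved both ways: 5 of 18 measured (19 listed) rose and 9 fell (median -1.17, or -0.39 with bounds; 8 and 8, median 0.05, under normexp). Beside Lin28b, the RNA-binding proteins Msi2 and Igf2bp3 were 2.09-fold and 3.40-fold higher (adjusted p = 5.33e-08 and 0.00582), Igf2bp3 with overlap. Sox10, the crest factor kept by glia, was at -2.39, -2.32, -2.21 and -2.27 in passaged spheres, against 1.1, 2.16 and 2.70 as lowest, median and highest in TH-MYCN SMG (20.5-fold lower, adjusted p = 5.45e-08). Foxd3, also expressed in crest and glial precursors, was 56.4-fold lower (adjusted p = 1.36e-07; 2 of 8 passaged sphere arrays well above background) and the surface protein Prom1 15.3-fold lower (adjusted p = 2.57e-08). Glial markers moved with these genes: 14 of 15 were lower, and their part in the result was not tested.

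Factors that define the mesenchymal type of human neuroblastoma cells were lower: 12 of 14 measured (20 listed) fell and 1 rose, with 7 not well above background on any passaged sphere array (median -3.06, or -2.01 with bounds; -0.84 under normexp, with 4 higher and 8 lower). Yap1, the Hippo pathway effector, was at least 135-fold lower (adjusted p = 4.42e-11), its relative Wwtr1 at least 16.8-fold lower (adjusted p = 6.4e-10) and the homeobox factor Meox2 at least 24.0-fold lower (adjusted p = 1.48e-12). Id1, a BMP-induced inhibitor of differentiation, was 1.83-fold higher with overlap (adjusted p = 0.00692). Fibroblast, endothelial and pericyte markers, cells that use the same factors, fell in the same samples. In bulk RNA fewer cells of a type and less RNA per cell cannot be told apart.

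Genes of ERK feedback were more often higher than lower, as were all tested genes (47% higher and 32.7% lower). Of 16 measured genes of ERK feedback and FGF or EGF receptors (17 listed) 9 rose and 3 fell (median 0.62, and the same after quantile normalization with 8 and 3). The ETS factor Etv4, an ERK-induced gene, was at 4.04, 3.36, 3.83 and 3.45 in passaged spheres, against -1.63, -0.87 and -0.74 as lowest, median and highest in TH-MYCN SMG (25.8-fold, adjusted p = 2.07e-10). Its relative Etv5 was 4.30-fold higher (adjusted p = 1.86e-06), and the ERK phosphatase Dusp4 was at -0.16, -0.53, 0.03 and -0.76 in passaged spheres, against -5.55, -4.37 and -4.01 in TH-MYCN SMG (17.0-fold, adjusted p = 2.61e-08). The receptors split, with Fgfr2 higher, Fgfr1 not called and 3 lower. Fgfr4 was 24.0-fold lower (adjusted p = 1.98e-06), Fgfr3 1.76-fold lower (adjusted p = 0.00057; -0.34 and not called as a mean over its probes, adjusted p = 0.0832), and Egfr at least 8.70-fold lower and not well above background in the cultures (adjusted p = 1.4e-11).

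Immediate early genes did not share a direction, with 4 of 15 higher and 7 lower (6 and 6 under normexp). Jun was at 4.46, 4.86, 4.62 and 4.67 in passaged spheres, against 2.88, 3.22 and 3.34 in TH-MYCN SMG (2.77-fold higher, adjusted p = 6.79e-08), Ier2 was 2.72-fold higher (adjusted p = 0.00018) and Btg2 1.60-fold higher with overlap (adjusted p = 0.00391). Nr4a1, an activity-induced receptor, was 6.52-fold lower (adjusted p = 1.34e-06), Ier3 6.99-fold lower (adjusted p = 1.58e-07; 3 of 8 passaged sphere arrays well above background), and Egr2, also a Schwann cell factor, at least 8.31-fold lower (adjusted p = 1.91e-08).

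Of 14 measured retinoid genes (15 listed) 2 rose and 7 fell (median -0.89), against 4 and 6 with a median of -0.22 under normexp and 4 and 7 without culture 3. The retinoid receptor Rarb, itself induced by retinoic acid in many cells, was at 2.30, 1.86, 1.57 and 2.12 in passaged spheres, against -0.39, -0.18 and 0.10 as lowest, median and highest in TH-MYCN SMG (4.42-fold, adjusted p = 1.78e-08), and the retinol transporter Stra6 was 7.42-fold higher (adjusted p = 1.82e-06). Rarg fell 172-fold (adjusted p = 6.93e-09; 1 of 8 passaged sphere arrays well above background, and -4.10 on the log2 scale under normexp), transglutaminase Tgm2 32.1-fold (adjusted p = 4.65e-12) and the retinoic acid carrier Crabp1 27.4-fold (adjusted p = 9.39e-08).

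WNT and hedgehog targets likewise split, with 7 of 12 measured (14 listed) higher and 3 lower. Of all tested genes 47% were higher and 32.7% lower. Hhip, which sequesters hedgehog ligands, was at 1.96, 1.76, 0.01 and 1.88 in passaged spheres, against -3.07, -2.73 and -2.48 in TH-MYCN SMG (17.7-fold higher, adjusted p = 9.08e-08), whereas Gli1, the direct hedgehog target, was not well above background in the cultures (at least 42.4-fold lower, adjusted p = 2.27e-10). The WNT feedback genes Nkd1 and Znrf3 were 1.82-fold and 1.77-fold higher (adjusted p = 0.00369 and 0.00119), the WNT antagonist Dkk1 at least 31.8-fold lower (adjusted p = 6.13e-10) and Lef1 6.09-fold lower (adjusted p = 0.000888; 4 of 8 passaged sphere arrays well above background, and -0.42 under normexp, adjusted p = 0.0984).

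Most Notch pathway genes fell: 11 of 16 were lower and 1 higher (median -1.18, or -0.94 with bounds; 8 and 1, median -0.49, under normexp). Notch3, a receptor of mural cells, was at -3.75, -4.57, -2.94 and -3.66 in passaged spheres, against -0.10, 0.31 and 0.81 as lowest, median and highest in TH-MYCN SMG (16.8-fold lower, adjusted p = 1.31e-08). The targets Hey2 and Heyl were at least 8.52-fold and 14.5-fold lower (adjusted p = 4.47e-11 and 3.68e-09), and both are also expressed by vascular cells. All 10 measured pericyte and 12 of 13 endothelial markers fell in the same cultures, and their part was not tested. Dtx1, a Notch regulator, was 1.32-fold higher with overlap (adjusted p = 0.0138), but its difference was -0.003 after quantile normalization, and the call was lost without culture 3 (0.29, adjusted p = 0.061).

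Cholesterol handling changed in opposite directions for synthesis and efflux. Of 20 genes of synthesis and uptake 12 rose and none fell (median 0.69), though quantile normalization gave 8 and 2 with a median of 0.06. Dhcr7, the last reductase of the pathway, was at 1.82, 1.82, 1.99 and 1.83 in passaged spheres, against 0.35, 0.65 and 0.92 as lowest, median and highest in TH-MYCN SMG (2.38-fold, adjusted p = 3.99e-07); Hsd17b7 (2.38-fold, adjusted p = 1.94e-05) and lanosterol synthase Lss (2.29-fold, adjusted p = 1.31e-05) were similar. Of 9 efflux genes 8 fell and none rose (median -4.91; -2.47 under normexp). Apoe, the lipoprotein secreted by glia and macrophages, was at -0.03, 0.14, -0.80 and -0.07 in passaged spheres, against 7.25, 7.49 and 7.93 in TH-MYCN SMG (209-fold lower, adjusted p = 1.48e-12). Apoc1 was 67.6-fold lower (adjusted p = 2.29e-10) and the exporter Abca1 156-fold lower (adjusted p = 5.27e-11; 1 of 8 passaged sphere arrays well above background, and -3.91 on the log2 scale under normexp). Macrophage and glial markers, whose cells make these proteins, fell beside them, and their part was not tested.

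Glycolysis genes were mixed. Of 21 genes 4 rose and 11 fell (median -0.43; 1 and 15 after quantile normalization). Hk2, the inducible hexokinase, was 2.74-fold higher (adjusted p = 0.000233) and Pkm, pyruvate kinase, 1.62-fold higher (adjusted p = 0.000764), or 0.05 on the log2 scale after quantile normalization (adjusted p = 0.753). Gapdh was at 8.92, 8.94, 9.11 and 9.12 in passaged spheres, against 7.73, 8.04 and 8.29 in TH-MYCN SMG, 2.01-fold higher (adjusted p = 1.91e-06), but quantile normalization turned its difference to -0.16 (adjusted p = 0.0788). The 3 deepest falls were those of Eno2, Pfkm and Aldoc. Eno2, neuronal enolase, was at 0.01, 0.75, 0.10 and 0.32 in passaged spheres, against 4.01, 5.05 and 5.68 in TH-MYCN SMG (25.4-fold lower, adjusted p = 5.56e-08), Aldoc, an aldolase of nervous tissue, was 13.0-fold lower (adjusted p = 1.33e-07) and Pfkm, the muscle-type phosphofructokinase, 18.6-fold lower (adjusted p = 0.000123), with a spread of -3.66 to 1.80 among cultures.

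Of 12 measured hypoxia genes (14 listed) 2 rose and 7 fell. Adrenomedullin Adm was 23.5-fold lower (adjusted p = 5.4e-08), Ndrg1 5.14-fold lower (adjusted p = 6.02e-09) and the collagen hydroxylase P4ha1 3.24-fold lower (adjusted p = 1.22e-06), while the oxygen sensor Egln1 was 1.36-fold higher (adjusted p = 0.0015). Higd1a was 1.65-fold higher (adjusted p = 1.59e-05), with a difference of -0.04 after quantile normalization. ATF4 targets and amino acid transporters showed no shared direction (8 of 17 measured higher and 6 lower, 18 listed; 6 and 8 after quantile normalization). Sestrin Sesn2 (2.65-fold, adjusted p = 0.000428), the arginine transporter Slc7a1 (2.17-fold, adjusted p = 1.42e-06) and the leucine transporter Slc7a5 (2.13-fold, adjusted p = 8.71e-05) were higher. The glutamine transporter Slc1a5, a reported MYCN target in human neuroblastoma, was at 0.16, 0.25, -0.29 and -0.10 in passaged spheres, against 1.93, 2.48 and 2.90 as lowest, median and highest in TH-MYCN SMG (5.34-fold lower, adjusted p = 8.92e-08), and Nupr1 and Cebpb were 20.6-fold and 5.46-fold lower (adjusted p = 2.68e-11 and 2.66e-06).

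Several p53 targets were higher, where 47% of all tested genes were higher and 32.7% lower. Of 17 measured (18 listed) 10 rose and 4 fell (median 0.63; 7 and 4 after quantile normalization, 8 and 5 without culture 3). The mean level of the list was 0.82 to 1.80 in passaged spheres and 0.86 to 1.04 in TH-MYCN SMG; culture 2 was below all ganglia and culture 4 among them. Cdkn1a, the cyclin-dependent kinase inhibitor p21, was at 2.37, 2.12, 4.13 and 2.98 in passaged spheres, against 0.40, 1.04 and 1.63 as lowest, median and highest in TH-MYCN SMG (3.74-fold, adjusted p = 0.000194). The nuclease Aen was at 5.54, 5.48, 6.21 and 5.75 in passaged spheres, against 3.33, 3.48 and 3.90 in TH-MYCN SMG (4.59-fold, adjusted p = 4.99e-08). Both genes lay above all ganglia in all cultures, highest in culture 3. Mdm2, the p53 ubiquitin ligase, was 1.40-fold higher (adjusted p = 0.000495), with a difference of 0.02 after quantile normalization, and Gtse1, also a G2 and mitosis gene, 4.65-fold higher (adjusted p = 0.000111). The targets that fell included Perp, an adhesion protein of epithelia (32.6-fold lower, adjusted p = 1.46e-10), Gdf15 (4.19-fold lower, adjusted p = 1.06e-05; 1 of 8 passaged sphere arrays well above background, and -0.08 under normexp) and Rprm (4.42-fold lower with overlap, adjusted p = 0.00249).

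In the BCL2 family 7 of 15 measured genes (16 listed) rose and 2 fell (median 0.66; 6 and 4, median 0.07, after quantile normalization; median 0.30 without culture 3). Of all tested genes 47% were higher and 32.7% lower. The 7 BCL2 family genes that rose hold pro-apoptotic members and Mcl1, a pro-survival member, so they share no single role. Bax was at 4.39, 4.34, 4.84 and 4.64 in passaged spheres, against 2.38, 2.78 and 2.94 as lowest, median and highest in TH-MYCN SMG (3.52-fold, adjusted p = 9.36e-08), Bbc3, or PUMA, was 2.76-fold higher (adjusted p = 4.14e-06) and Bcl2l11, or BIM, 2.95-fold higher (adjusted p = 0.00045). Of the 2 that fell, Bad is pro-apoptotic (1.56-fold lower, adjusted p = 0.000231) and Bcl2l2 pro-survival (1.54-fold lower, adjusted p = 0.00146).

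Of 18 genes of PRC2 and DNA methylation 14 rose and 2 fell (median 1.14; 13 and 3 after quantile normalization). The maintenance methyltransferase Dnmt1 was at 2.58, 2.66, 2.36 and 2.38 in passaged spheres, against -0.72, 0.15 and 0.61 in TH-MYCN SMG (lowest, median and highest; 5.45-fold, adjusted p = 4.22e-07), its partner Uhrf1 was 6.42-fold higher (adjusted p = 1.79e-05) and the PRC2 accessory protein Phf19 3.35-fold higher (adjusted p = 0.000293). Ezh1, the PRC2 enzyme of resting cells, was 7.37-fold lower (adjusted p = 5.7e-08), and Phf1 3.93-fold lower (adjusted p = 1.18e-06). Imprinted growth genes had no shared direction (3 of 11 measured higher and 3 lower, 14 listed). Plagl1 (2.42-fold, adjusted p = 6.81e-05), Peg10 (2.33-fold, adjusted p = 0.0024) and Cdkn1c (1.67-fold with overlap, adjusted p = 0.00626) were higher. Meg3, a long noncoding RNA, was 2.14-fold lower (adjusted p = 1.62e-05), Peg3 1.86-fold lower with overlap (adjusted p = 0.000998), and Rtl1 at least 1.38-fold lower (adjusted p = 1.64e-05), although normexp correction gave Rtl1 a difference of 0.36 (adjusted p = 0.0447).

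Antigen presentation and interferon genes were much lower in passaged spheres. Of 12 genes of MHC class I and its peptide supply 11 fell, 5 of them to below reliable detection on all passaged sphere arrays (median -3.14, or -2.74 with bounds). Tap2, a subunit of the peptide transporter of the endoplasmic reticulum, was at -7.07, -6.99, -6.40 and -6.64 in passaged spheres, against 1.01, 1.98 and 2.45 as lowest, median and highest in TH-MYCN SMG (at least 87.5-fold lower, adjusted p = 2.63e-11). The immunoproteasome subunits Psmb8 and Psmb9 were at least 50.3-fold and 27.4-fold lower (adjusted p = 6.31e-12 and 7.14e-11). The chaperone Calr was 1.40-fold higher (adjusted p = 0.000232), with a difference of -0.11 after quantile normalization.

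Of 15 measured interferon genes (16 listed) none rose and 14 fell (median -3.28, or -2.63 with bounds; -1.46 under normexp). Ifit1, which binds foreign RNA, was at -7.04, -6.74, -6.50 and -6.55 in passaged spheres, against -0.91, -0.40 and 0.21 in TH-MYCN SMG (at least 18.6-fold lower, adjusted p = 1.4e-11). Its neighbour Ifit3 was 41.4-fold lower (adjusted p = 1.73e-09) and Oasl2 180-fold lower (adjusted p = 4.1e-10), with 1 and 2 of 8 passaged sphere arrays well above background. Under normexp the differences of Ifit3 and Oasl2 were -2.61 and -4.62. All 12 measured macrophage markers and 12 of 13 endothelial markers, cells that express both programs strongly, fell in the same samples, and their part was not tested.

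The Ifit1 and Ifit3 promoters are shown because both hold the core of the interferon-stimulated response element, GAAA and GAAA parted by any 2 bases (capitals, here on the opposite strand), with 2 matches in each window. This motif was found on either strand in 6 of 13 interferon promoters with a sequence (46.2%) and 1 of 10 MHC promoters, against 3.04% of all promoters, and was chosen with these counts known. The windows are 250 bases upstream of the start on the plus strand (RefSeq, GRCm38.p6), chr19:34640639-34640888 for Ifit1 and chr19:34583279-34583528 for Ifit3:
Ifit1: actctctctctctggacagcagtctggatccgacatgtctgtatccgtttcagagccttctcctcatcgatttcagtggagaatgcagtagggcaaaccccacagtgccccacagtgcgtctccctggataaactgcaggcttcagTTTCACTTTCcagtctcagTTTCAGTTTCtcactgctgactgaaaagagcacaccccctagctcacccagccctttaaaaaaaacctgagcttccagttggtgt
Ifit3: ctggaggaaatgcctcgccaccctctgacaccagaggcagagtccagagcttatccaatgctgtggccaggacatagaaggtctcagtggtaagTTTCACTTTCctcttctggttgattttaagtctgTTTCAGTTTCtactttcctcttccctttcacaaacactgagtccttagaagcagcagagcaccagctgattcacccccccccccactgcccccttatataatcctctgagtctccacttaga
The matches began 104 and 85 bases before the start of Ifit1 and 156 and 122 bases before that of Ifit3.

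Markers of the other cells of a ganglion were low or undetected in the passaged spheres. The mean level of the macrophage list (12 of 13 measured) was -5.73 to -5.35 in passaged spheres and 0.63 to 1.35 in TH-MYCN SMG, and 12 of 12 genes fell, 8 of them not well above background on any passaged sphere array. The defining genes Aif1, C1qc and Tyrobp were each undetected in this sense, at least 161-fold, 125-fold and 218-fold lower (adjusted p = 2.38e-12, 2.62e-12 and 2.2e-12). Fibroblast markers averaged -3.75 to -3.36 in passaged spheres and 2.64 to 3.04 in TH-MYCN SMG, with 12 of 13 lower. Dcn, decorin, was at -6.91, -6.84, -5.87 and -6.51 in passaged spheres, against 5.97, 6.22 and 6.39 as lowest, median and highest in TH-MYCN SMG (at least 1810-fold lower, adjusted p = 2.6e-14), and Lum and Mgp were at least 312-fold and 353-fold lower (adjusted p = 1.41e-13 and 1.04e-12). Col1a2, a collagen chain, was 182-fold lower (adjusted p = 2.15e-10) but remained well above background on all 8 passaged sphere arrays.

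The exceptions among these markers were few and were read by value. Fbln1, a secreted matrix protein on the fibroblast list, was at 2.33, 2.61, 2.58 and 2.46 in passaged spheres, against -0.81, 0.39 and 0.80 in TH-MYCN SMG (5.04-fold higher, adjusted p = 4.75e-06). Kdr, a VEGF receptor, was 2.96-fold higher by the probe used (adjusted p = 0.000208), while another probe gave a difference of -5.21 (adjusted p = 7.2e-09) and the mean of its probes gave -1.82, so its direction is not settled. Lpl, lipoprotein lipase on the adipocyte list, was 1.88-fold higher (adjusted p = 0.00221). The remaining 12 endothelial markers fell, among them Cldn5 and Robo4 (at least 13.4-fold and 30.1-fold lower, adjusted p = 2.81e-09 and 2.66e-10) and Flt1 (39.6-fold lower, adjusted p = 5.26e-07; 2 of 8 passaged sphere arrays well above background), and the list averaged -4.13 to -3.66 in passaged spheres and -1.23 to -0.31 in TH-MYCN SMG.

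Glial and mural markers were also lower. Schwann and satellite glia markers averaged -2.45 to -2.23 in passaged spheres and 0.81 to 1.76 in TH-MYCN SMG, with 14 of 15 lower and none higher. Fabp7, the fatty acid carrier of satellite glia, was at -6.80, -6.74, -6.14 and -6.38 in passaged spheres, against 4.50, 4.77 and 5.06 as lowest, median and highest in TH-MYCN SMG (at least 677-fold lower, adjusted p = 2.33e-14). S100b was 150-fold lower (adjusted p = 1.59e-10; 1 of 8 passaged sphere arrays well above background, -3.85 under normexp) and Cdh19 at least 21.9-fold lower (adjusted p = 3.94e-11), but 9 of the 15 glial genes were still well above background in all 4 cultures, Sox10 among them. Pericyte and smooth muscle markers averaged -5.35 to -5.09 in passaged spheres and -2.59 to -1.73 in TH-MYCN SMG, with 10 of 10 measured lower (11 listed; 6 lower and 1 higher under normexp). Rgs5 was 31.5-fold lower (adjusted p = 4.56e-10; 1 of 8 passaged sphere arrays well above background, -2.20 under normexp), and Pdgfrb and Cspg4 were at least 14.6-fold and 17.2-fold lower (adjusted p = 6.94e-11 and 7.55e-09).

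Blood, fat and lining cells followed. Of 7 measured erythroid genes (8 listed) 6 fell, with the globins Hba-a1 and Hbb-bt at least 1100-fold and 930-fold lower (adjusted p = 3.27e-10 and 1.06e-10) and Hba-a2 2440-fold lower (adjusted p = 2.33e-11; 5 of 8 passaged sphere arrays well above background). These globin genes are near-identical copies whose probes may share transcripts. Adipocyte markers (8 of 9 measured lower, 4 under normexp) included Fabp4 and Adipoq, at least 71.0-fold and 5.64-fold lower (adjusted p = 9.77e-08 and 0.000788), and Cfd, 122-fold lower (adjusted p = 1.84e-05; 1 of 8 passaged sphere arrays well above background); they ranged widely among the ganglia, Cfd from -1.94 to 3.93. The mesothelial gene Msln and the epithelial genes Krt19 and Cdh1 were lower by at least 3.74-fold, at least 6.85-fold and 16.7-fold (adjusted p = 1.02e-07, 2.75e-10 and 4.51e-06); Cdh1 was well above background on 1 of 8 passaged sphere arrays and differed by -1.09 under normexp. Mast cell markers fell in 5 of 6 measured cases (Mcpt4 at least 7.02-fold, Hdc at least 3.54-fold and Cpa3 at least 1.84-fold lower, adjusted p = 8.79e-09, 2.1e-06 and 2.81e-07), but normexp gave 2 higher and 2 lower.

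Lymphocyte and pancreatic markers gave no settled direction. Of 8 measured lymphocyte genes (12 listed) 3 rose and 5 fell, and 6 rose and 1 fell under normexp; the 3 that rose, Cd3e (2.83-fold, adjusted p = 0.000252), Lck (2.92-fold, adjusted p = 0.000125) and Nkg7 (1.92-fold, adjusted p = 0.000196), were detected on all 8 passaged sphere arrays, whereas the B-cell gene Cd79b was 10.3-fold lower (adjusted p = 1.23e-05; 1 of 8 passaged sphere arrays well above background, -0.54 under normexp). Of 6 measured acinar genes (10 listed) 2 rose and 3 fell, against 4 and 1 under normexp: Clps (1.67-fold, adjusted p = 0.000115) and Ctrb1 (1.68-fold with overlap, adjusted p = 0.00213) were higher. Nr5a1, a factor of the adrenal cortex, was 1.99-fold higher (adjusted p = 5.42e-05), and the other 2 measured cortex genes did not pass the test. Chromaffin markers fell in 6 of 7 cases; Pnmt, which makes adrenaline, was 2.97-fold lower with overlap (adjusted p = 0.00181) and Slc35f4 at least 7.80-fold lower (adjusted p = 2.1e-08).

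**Figure D4:**
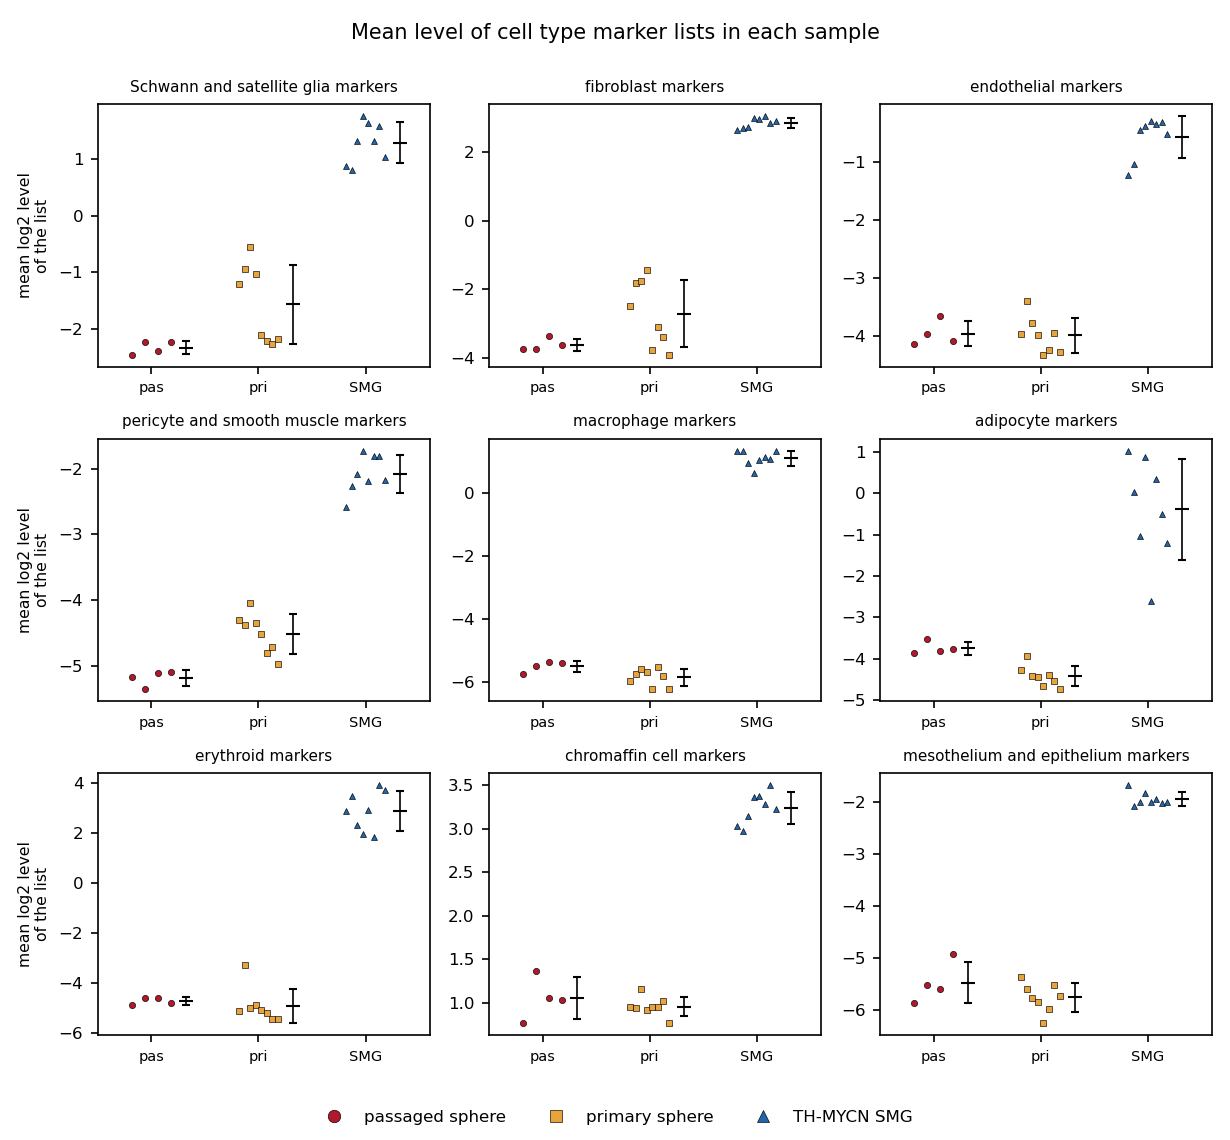
Mean log2 level of 9 marker lists of other cell types (1 panel each, y axis) in passaged spheres, primary spheres and TH-MYCN SMG; points are samples and bars are means ± SD. Macrophage, fibroblast, glia, endothelial and pericyte means of the 4 passaged cultures all lie below those of the 8 ganglia. Primary spheres reach higher than passaged spheres for glia, fibroblasts and pericytes. For endothelial and erythroid markers only primary culture 2 does so.

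The largest changes were also ranked over all tested genes. Among rises measured on both sides, Adora2a, an adenosine receptor, was at -1.24, 2.00, 1.34 and 1.84 in passaged spheres, against -4.32, -3.47 and -3.31 as lowest, median and highest in TH-MYCN SMG (24.5-fold, adjusted p = 2.3e-06). Synpo2, an actin-binding protein, was 21.4-fold higher (adjusted p = 1.05e-11), the aldehyde dehydrogenase Aldh1a7 18.6-fold (adjusted p = 6.62e-08) and C2cd4b 18.2-fold (adjusted p = 2.85e-09). Detected in the cultures and on none of the ganglia were Lhx3, a LIM homeobox factor of motor neurons and pituitary (at least 21.5-fold higher, adjusted p = 3.77e-09), the neuropeptide FF receptor Npffr1 (at least 19.2-fold, adjusted p = 3.47e-08), Efcab3 (at least 17.8-fold, adjusted p = 4.04e-09) and Tmc1, a hair-cell channel protein (at least 6.12-fold, adjusted p = 1.98e-05). Lhx3 was at -0.63, -1.51, -2.18 and -0.38 in passaged spheres, against -7.27, -6.70 and -6.38 in TH-MYCN SMG. Tested genes with no array well above background in the passaged spheres alone numbered 1448, and those with none in the ganglia alone 11. These counts are not comparable. The filter asks for 4 samples well above background, which is every culture but only 4 of the 8 ganglia. Sphere arrays also had fewer spots well above background.

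Among genes well above background on every array of both groups, the deepest fall was that of Apod, a lipocalin of glia and fibroblasts, at -3.77, -3.57, -3.42 and -3.63 in passaged spheres, against 6.22, 6.44 and 6.69 in TH-MYCN SMG (1060-fold lower, adjusted p = 5.24e-15). Insrr, an insulin receptor relative, was at -4.20, -2.52, -3.12 and -3.72 in passaged spheres, against 3.57, 4.58 and 5.26 in TH-MYCN SMG (235-fold lower, adjusted p = 8.38e-10). The orexin receptor Hcrtr1 was 154-fold lower (adjusted p = 1.51e-10), and Sparcl1, a matrix protein of glia and vessels, 131-fold lower (adjusted p = 9.26e-10). The globin Hbb-b2 was at least 753-fold lower (adjusted p = 8.72e-11).

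The passaged spheres were also set against the primary spheres, which share slides: arrays of both kinds lay on each of 2 slides. The labels do not tie these cultures to animals, so passaging and the origin of the cultures cannot be told apart. Here 730 of 14242 genes were higher (5.13%) and 917 lower (6.44%), or 11.6% called. Between passaged spheres and ganglia 79.7% were called, but that contrast shares no slide, so the 2 shares are not on equal terms. Leaving out 1 sample at a time gave 255 to 766 higher and 514 to 976 lower. The higher count fell to 255 without passaged culture 2, 263 without culture 4, 425 without primary culture 4 and 445 without primary culture 7, and the lower count to 554 and 514 without passaged cultures 2 and 4. Within the first sphere slide 271 genes were higher and 759 lower, and within the second 469 and 487.

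Part of the cell-cycle genes were higher still than in primary spheres. Of 17 replication genes 10 were higher than in primary spheres and none lower, and of 20 mitosis genes 5 were higher and none lower. Mcm3 and Cdt1 differed from primary spheres by 0.47 and 0.59 (adjusted p = 0.00968 for each), E2f1 and E2f2 by 0.50 and 0.64 (adjusted p = 0.00234 and 0.00546) and Ccnd1 by 0.86 (adjusted p = 0.00311). These are small beside the differences from the ganglion. Mycn was 0.44 higher than in primary spheres (adjusted p = 0.0145), 0.43 within the first slide (adjusted p = 0.0438) and 0.44 within the second (adjusted p = 0.0654), and the call was lost without culture 2 (0.39, adjusted p = 0.0546). Gata3 was 0.77 higher (adjusted p = 0.011; 0.62 and 0.92 within the slides, adjusted p = 0.0387 and 0.03), Dbh 0.66 higher (adjusted p = 0.0061; 0.64 and 0.68, adjusted p = 0.0209 and 0.0459) and Hand2 0.43 higher (adjusted p = 0.0069).

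Other genes were lower in passaged than in primary spheres. In cholesterol synthesis and uptake 8 of 20 genes were lower than in primary spheres and none higher, among them Lss (-0.46, adjusted p = 0.00549). Hand1 (-1.97, adjusted p = 0.0116), Phox2a (-1.10, adjusted p = 0.0244), Mxd4 (-1.02, adjusted p = 0.00743), Phgdh (-1.50, adjusted p = 0.00305), Ntf3 (-1.13, adjusted p = 0.0117) and Ngfr (-1.52, adjusted p = 0.024) were lower. The calls of Phox2a and Ngfr were lost without culture 2 (adjusted p = 0.0842 and 0.0559) and without culture 4 (adjusted p = 0.073 and 0.0823). For 4 genes far from the ganglion, primary spheres were near the passaged ones: Cartpt had a median of 8.36 in primary spheres, Etv4 3.89, Lin28b 2.51 and Npy -0.69, and none of these 4 genes passed the test between passaged and primary spheres (adjusted p = 0.518, 0.245, 0.128 and 0.622).

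Stromal markers were lowest in passaged cultures for some cell types and not for others. Of 13 glial genes tested against primary spheres 5 were lower and 1 was higher, and of 5 pericyte genes 3 were lower and none higher. Fabp7 was 6.67 lower on the log2 scale (adjusted p = 0.00113), with -8.30 and -5.05 within the 2 slides (adjusted p = 1.38e-05 and 0.000438). Rgs5 was lower by 2.50 (adjusted p = 0.000109), with -2.90 and -2.10 within slides (adjusted p = 0.000432 and 0.0271). Pdgfrb was lower by 2.02 (adjusted p = 0.00365), Cspg4 by 3.01 (adjusted p = 0.0124) and Apod by 4.34 (adjusted p = 0.0135). By the probes used against the ganglia, Fabp7, Pdgfrb and Cspg4 were not well above background on any passaged sphere array. Rgs5 was so on 1 of 8. The sizes of these 4 differences therefore rest on signals near background and are not settled. The primary spheres were not uniform. Glial means were -2.45 to -2.23 in passaged spheres, against -1.21 to -0.56 in primary cultures 1 to 4 and -2.26 to -2.10 in primary cultures 5 to 8, which lay on another slide, and fibroblast means were -3.75 to -3.36 in passaged spheres, against -2.48 to -1.44 and -3.90 to -3.10 in the same primary cultures. Tap2 was 3.15 lower than in primary cultures 1 to 4 (-3.15, adjusted p = 0.000549) and 0.12 above primary cultures 5 to 8 (adjusted p = 0.881). It was likewise not well above background on any passaged sphere array, so these sizes are not settled. Macrophage means were -5.73 to -5.35 in passaged spheres and -6.22 to -5.51 in primary spheres, and endothelial means -4.13 to -3.66 in passaged spheres and -4.32 to -3.40 in primary spheres, so both lists overlapped between the 2 kinds of sphere. The macrophage means lay below the lowest signals well above background on passaged sphere arrays (-5.05 to -4.11).

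The 4 cultures differed from each other in many genes. An F test over the 2 arrays of each culture called 5618 of 12107 genes (46.4%), with a median SD of 0.0763 between arrays of a culture and 0.136 between culture means. Repeat arrays carry the same culture, so this compares these cultures and not a condition. Culture 3 was most often the one farthest from the median of the 4, on the high side for 1211 called genes and on the low side for 1387, and without it 3653 genes were called. Cultures 1, 2 and 4 were the farthest on the high side for 675, 503 and 292 genes and on the low side for 731, 599 and 220. Culture 3 also had the lowest 75th percentile signals (322.72 and 362.28), with culture 4 close to it (366.79 and 367.81). Cultures 1 and 2 had 500.72 to 538.93. The part of array signal in these counts was not tested.

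Cdkn2a, which encodes the tumour suppressors p16 and p19ARF, had the widest range among the 12107 genes tested across cultures (detected on all their arrays), at -2.51, -3.09, 4.23 and 2.75 in cultures 1 to 4, against -3.32, -1.22 and -0.67 as lowest, median and highest in TH-MYCN SMG. It was high in cultures 3 and 4, within the range of the ganglia in cultures 1 and 2, and as a group mean did not pass the test against the ganglia (1.89 ± 1.18, adjusted p = 0.159), though it did without culture 1 (2.84, adjusted p = 0.0468) or culture 2 (3.04, adjusted p = 0.0255). Chgb, chromogranin B, was at 5.33, 4.02, 8.57 and 2.92, against 5.08, 5.49 and 6.16 in TH-MYCN SMG, highest in culture 3; without culture 3 Chgb was lower than in the ganglia (-1.45, adjusted p = 0.0062). Pls3, an actin-bundling protein, was at -4.12, 1.24, 2.09 and 1.77 in cultures 1 to 4 against a mean of 3.25 in TH-MYCN SMG, low in culture 1. Culture 2 was the lowest for Xlr3b (2.65, -3.49, 1.69 and 2.95, against a mean of 1.78 in TH-MYCN SMG) and Gpm6b, a neuronal membrane protein (2.55, -3.09, -0.20 and -0.15, against a mean of 4.30), and the highest for Tuba1c, an alpha-tubulin (-0.05, 5.72, 3.69 and 2.18, against a mean of 3.00).

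Culture 2 also lacked RNA of the Y chromosome, a check made after its values were seen. Ddx3y was at 1.39, -6.80, 0.93 and 1.14 in cultures 1 to 4, against 1.21, 1.34 and 1.46 as lowest, median and highest in TH-MYCN SMG, and Eif2s3y at 2.73, -6.98, 2.56 and 2.87, against 2.00, 2.19 and 2.66. All 8 ganglia and 3 of 4 cultures carried this RNA, and the labels do not give the sex of the animals. Primary cultures 2, 6, 7 and 8 lacked it as well, with sex-linked list means of -7.29, -7.58, -7.56 and -7.53. The contrast with the primary spheres is therefore uneven in this RNA, and its part there was not tested. Without culture 2 the contrast with TH-MYCN SMG gave 6920 genes higher and 4808 lower, and Eif2s3y was 0.46 higher (adjusted p = 0.0104).

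**Figure D5:**
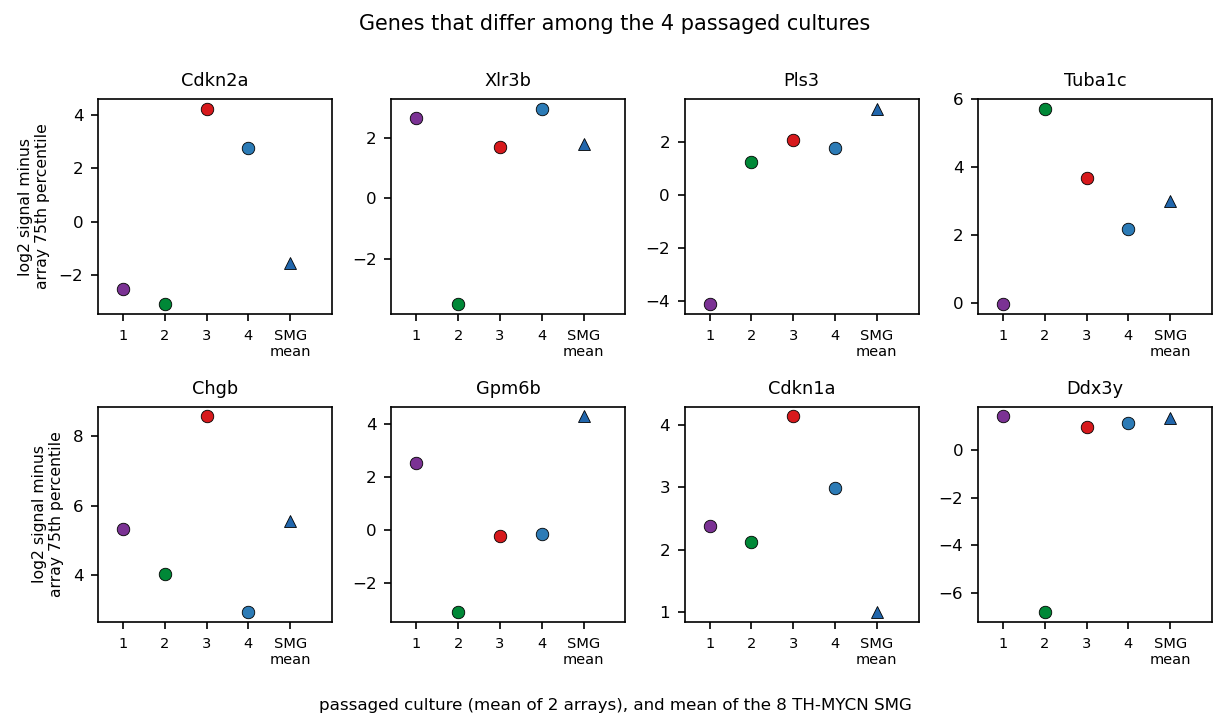
Log2 signal relative to the 75th percentile (y axis) of 8 genes in passaged cultures 1 to 4 (circles, means of 2 arrays; x axis, 1 panel per gene), left of the mean of the 8 TH-MYCN SMG (triangles). Cdkn2a is high in cultures 3 and 4, Chgb is highest in culture 3, Pls3 is low in culture 1, and Ddx3y is at -6.80 in culture 2.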

How the data were processed

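The authors hybridised Cy3-labelled total RNA (RNA integrity number over 8, 40 or 200 ng labelled, per the labels' protocols) to Agilent mouse arrays with 1 sample each. The labels do not say which samples had 40 ng and which 200 ng, so the amount may differ between spheres and ganglia. The deposited scanner files hold intensity values from Agilent Feature Extraction 11.5.1.1, per the file headers. From them gProcessedSignal was converted to log2 after division by the 75th percentile of each array; control spots were dropped, as were the 109 to 211 spots flagged as outliers on an array. None was saturated. Each passaged culture is the mean of its 2 arrays. The deposited value table holds log2 values of the same arrays, centred per probe against a reference not named in the labels or headers; 99.9% of its values matched those computed here within 0.05 after that centring, with column medians of 0.147 to 0.506 for passaged sphere arrays and -0.393 to -0.113 for TH-MYCN SMG arrays.

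Of 55681 probes, 27235 carry a gene symbol in the files (20660 symbols) and 28446 do not and were left out. A gene is represented by its brightest probe, kept where at least 4 samples were well above background. Two-sided tests used limma 3.58.1 (R 4.3.3; lmFit, eBayes, Benjamini-Hochberg adjustment over all genes tested, threshold 0.05) on the passaged sphere and TH-MYCN SMG samples, in which slide is confounded with group. The passaged and primary spheres were tested the same way, and the 4 cultures by an F test over arrays. The code was tested on simulated data.

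The genes named are those of a panel, the extremes of the ranking, up to 3 rises and 3 falls per list and the 6 most variable genes among cultures. The members, lists and motifs were chosen with earlier results of these data known, so no list is independent evidence of its direction. Alternatives varied the scaling, background correction, probe filter, probe choice, slides and samples. Not every same-numbered pair correlated above 0.1 in its deviations (-0.0784 to 0.148 with the ganglia and -0.0144 to 0.2 with the primary spheres), so numbers were not used as pairs, although each passaged culture correlated best with the primary culture of its number. Array number and signal over background limit the precision of dim genes. A few genes that these rules name are not reported here.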

Additional observations from a re-analysis of the deposited data

Results flagged for a closer look

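Among 273 genes and lists, taken in 2 groups each (546 groups), 31 (5.68%) held a sample far from the others of its group, judged by the gap to the nearest sample relative to the group's range (Dixon's criterion). Chance gives about 1 in 20, so the share as a whole is near that level. Of these, 16 were in passaged spheres and 15 in TH-MYCN SMG.

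In passaged culture 2 the Y-linked genes Ddx3y (-6.80) and Eif2s3y (-6.98) were far below the other cultures, as was the mean of the sex-linked list (-6.88), and Dbh was the highest (7.01). In culture 1, Aldh1a7 (0.25), Cspg4 (-6.83, below reliable detection), Paox (-0.26), Tgm2 (-4.23) and the mean of the retinoid list (-2.43) were low. In culture 3, Dhcr7 (1.99), Perp (-2.90), Slc35f4 (-5.23, below reliable detection), Srm (4.98) and the mean of the BCL2 list (1.63) were high and Hhip (0.01) was low. Ngfr was low in culture 4 (-1.12).

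Ganglion 4 was the sample that stood apart in 10 of the 15 in TH-MYCN SMG. Its levels of Cartpt (2.08), Meg3 (6.21), Mxd3 (-2.42), Rrm2 (2.44), Shmt1 (-2.19), Srm (2.57), Ube2c (2.12) and the one-carbon list (0.46) were low, and those of Bcl2l2 (1.72) and Mycn (1.26) were high. In the remaining ganglia, Msln (-1.34) and the mean of the adrenal cortex list (-1.32) were high in ganglion 1 and Ctrb1 was high in ganglion 3 (-3.48). Dusp4 was low in ganglion 2 (-5.55) and Nts in ganglion 5 (-8.12), both below reliable detection. Differences of this size within a group are values of single samples and have no replicate.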

How the results depend on the processing

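Under the alternatives for passaged sphere minus TH-MYCN SMG, the counts of genes called higher and lower stayed within 1.5 times the reported 7231 and 5024. Quantile normalization gave 5805 and 5748, normexp 8389 and 3910, no filter on dim probes 10570 and 5059 (67.6% of calls higher), equal medians of the tested genes 7906 and 4594 (63.2% higher), and the deposited log2 values gave 7080 higher and 5075 lower; the calls opposite to the reported ones numbered 163 under quantile normalization and 477 under normexp. Genes at least 2-fold lower numbered 2170 under normexp, against 3584. Leaving out 1 sample gave 6898 to 7274 higher and 4785 to 5067 lower, and 11188 genes were called in each of these fits. With the replicate number as a block over samples 1 to 4 of each group, 6428 were higher and 4438 lower, against 6747 and 4597 for the same samples without the block. Of the named genes' differences under the alternatives 6323 kept their direction and their side of the threshold, 62 lost the call, 13 gained it and 14 changed sign. Among called genes, Calr (-0.111), Dtx1 (-0.003), Gapdh (-0.155) and Higd1a (-0.043) changed sign after quantile normalization, Rtl1 (0.359) under normexp, and Kdr (-1.822) as a mean over its probes, which disagree. Among genes not called, Th changed sign after quantile normalization (-0.721, which passed the test) and Tuba1c with equal medians (0.014). Leaving out 1 sample gave -1.061 to 0.863 for Tuba1c, -1.448 to 0.433 for Chgb, -1.494 to 0.652 for Xlr3b and -2.825 to 0.457 for Eif2s3y, genes that differ widely between cultures. The cause of the other changes of sign was not tested. Calls were also lost by Gfra4, Nkd1 and Fgfr3 as a mean over probes (0.17, 0.21 and -0.34), by Cpa3, Gdf15, Rbl2, Lef1, Hdc and Adipoq under normexp (-0.10, -0.08, -0.09, -0.42, -0.25 and -1.16), by Cdkn1c after quantile normalization (0.49) and by Cdkn1c, Ctrb1 and Bcl2l2 under the replicate block (0.74, 0.53 and -0.59).

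For passaged minus primary spheres, reported as 730 higher and 917 lower, normexp gave 478 and 501, arrays taken as samples with slide as a block 2022 and 1925 (a setting that counts repeat arrays as samples), and the replicate block over cultures 1 to 4 219 and 715, against 556 and 1014 for the same cultures without it. In that block each passaged culture correlated best with the primary culture of its own number (-0.0144 to 0.2), a hint from the data and not from the design. Among cultures 1 to 4 of each kind, only number 2 lacked RNA of the Y chromosome. Whether same-numbered cultures are pairs is therefore not settled, and the block counts stand beside the reported ones. Within the first sphere slide 271 were higher, and within the second 469 were higher and 487 lower, comparisons added after the data were seen. Leaving out 1 sample gave 255 to 766 higher and 514 to 976 lower. Npy ranged from -0.211 to 0.678 without 1 sample, and Tap2 was at 0.12 within the second slide, neither called over all cultures. The cause of these changes was not tested. Of the genes named there, the calls of Mcm3 and Hand1 were lost within the first slide, those of Mycn, Hand2, Phox2a, Mxd4 and Ntf3 within the second, those of Cdt1, Gata3 and Phgdh under the block, and those of Pdgfrb and Cspg4 under normexp. Among cultures, leaving out 1 gave 3653 to 5164 genes called, with 3653 without culture 3. Signal over background limits the dim genes: 49.0% to 53.9% of spots were well above background on passaged sphere arrays, and differences given as bounds have no measured size.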
